A study of Mus musculus with 12 samples.

Results

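The ATF4 program was described as 35 genes of amino acid synthesis and transport, one-carbon metabolism and the stress response that ATF4 controls, measured by bulk RNA-seq in tumor cells of MC38, a mouse colon adenocarcinoma line, that carried wild-type (WT) RAC1 or the A159V mutation. The members were chosen by name from a list, and each of the 35 matched exactly 1 row of the count table, which holds 33219 rows in all. By their roles they fell into 13 regulators and stress effectors, 8 enzymes of serine and one-carbon metabolism, 5 enzymes of asparagine, proline and transamination, 7 amino acid carriers and 2 other targets. The A159V cells carried a homozygous knock-in at the endogenous Rac1 locus made with CRISPR-Cas9, and the study presented data from a single clone unless it said otherwise, so the mutation and features of 1 clone cannot be told apart. C57BL/6 mice aged 6 to 8 weeks received the cells under the skin, then 100 μg of an antibody against PD1 (anti-PD1) or of an IgG isotype control every 3 days from day 3. On day 13 tumor cells were enriched from dissociated tumors with a magnetic Tumor Cell Isolation Kit, and their RNA was sequenced. This gave 4 groups of 3 mice, tumors of either genotype under either treatment, called here by genotype and then treatment (WT IgG, for example). The counts per gene carry no base calls, so the A159V genotype itself could not be checked in them.

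ATF4 is a transcription factor whose own mRNA is translated more efficiently when the initiation factor eIF2 is phosphorylated, a switch called the integrated stress response. The kinases that phosphorylate eIF2 sense uncharged tRNA, misfolded protein in the endoplasmic reticulum, double-stranded RNA or a lack of heme, and mTORC1 signaling can raise ATF4 as well. ATF4 pairs with C/EBP proteins on composite DNA elements and drives genes that make, import and charge amino acids, and also a second branch of stress effectors, among them the transcription factors CHOP (Ddit3) and ATF3, that slow growth or favor cell death when stress persists. Because ATF4 is controlled mainly in translation, its mRNA level is not a readout of its protein, and only mRNA was measured here.

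All 35 members were detected well above the limit of the libraries. The total counts ranged from 14053582 to 21949942 per sample, and the lowest count of any member in any sample was 166, against 3 counts taken as the smallest detectable amount. Counts were scaled by the TMM method and divided by library size to give CPM, which is the unit of all levels below. Per kb of exon, the scale on which levels of different genes can be compared, the highest mean levels in WT IgG were those of Atf4 (237.5 CPM per kb), Ddit4 (202), Phgdh (185) and Eif4ebp1 (155). The lowest were those of Pycr1 (5.57 CPM per kb), Slc6a9 (6.33) and Vldlr (6.73). By its trend with exon length, 1 library stood apart. In WT IgG replicate 1, log2 CPM fell by 0.226 per doubling of exon length over 14216 genes, relative to the mean of all samples, while in the other 11 samples this slope lay between -0.085 and 0.07. Over the 35 members, the log2 difference of this library from the other WT IgG libraries had a Spearman rho of -0.641 with exon length, a description without a test over genes that share the library. The members' rho alone did not single the library out. Against the rest of their group, A159V IgG replicate 5 gave -0.599 and A159V IgG replicate 2 gave 0.568. WT IgG replicate 4, whose reference includes replicate 1, gave 0.64. Over all genes the rho was -0.493 in WT IgG replicate 1 and 0.484 in replicate 4. It was -0.081 and 0.155 in A159V IgG replicates 5 and 2. Long members were low in WT IgG replicate 1 and several short ones high. Aldh1l2 read 56.3, 109.9 and 120.0 CPM in WT IgG replicates 1, 2 and 4, and Atf4 read 709.9, 512.5 and 457.5 CPM.

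**Figure D1:**
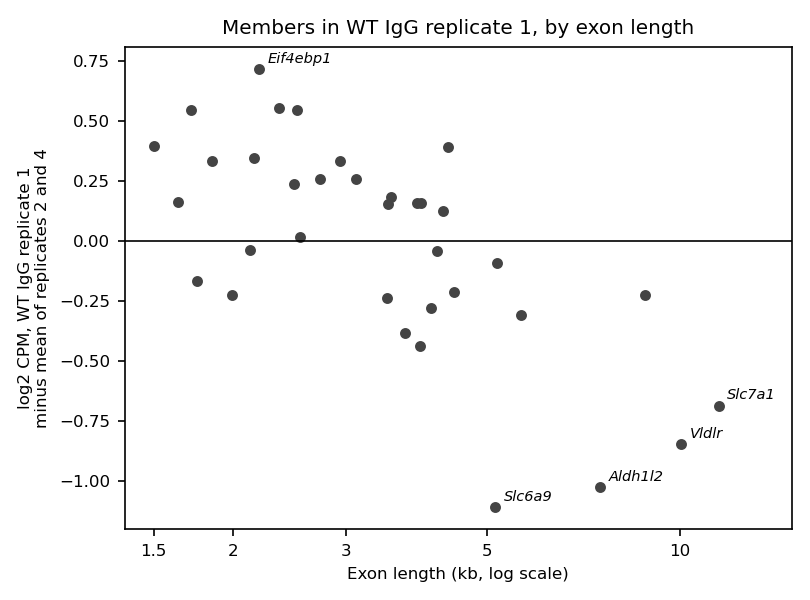
Each point is 1 of the 35 members. The x axis gives exon length in kb on a log scale, and the y axis the log2 CPM of WT IgG replicate 1 minus the mean of replicates 2 and 4. Slc6a9, Aldh1l2, Vldlr and Slc7a1, all with long exons, sit lowest, and the short Eif4ebp1 sits highest.

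Other cell types in the tumor cell fractions were read from marker lists. The summed level of 17 leukocyte markers ranged from 34.7 to 39.3 CPM in WT IgG, 54.0 to 80.6 in WT anti-PD1, 47.9 to 64.9 in A159V IgG and 50.0 to 54.5 after anti-PD1 in A159V. Cd68, a lysosomal protein, was the largest part of that sum. It averaged 23.2 CPM in WT IgG and 40.7 in A159V IgG, while the pan-leukocyte gene Ptprc averaged 1.31 and 0.103 CPM. Markers with at most 3 counts in every library of a group included Cd3e, Cd4 and Adgre1 in WT IgG, Cd4 and Adgre1 in WT anti-PD1, and Cd3e, Itgam, Adgre1 and Nkg7 in each A159V group. No read was counted for Ncr1 in A159V IgG and for Cd3e in A159V anti-PD1. The 6 fibroblast and pericyte markers summed to between 237 and 460 CPM in WT IgG and between 354 and 604 in WT anti-PD1, but to at most 227 in A159V IgG and 186 in the A159V anti-PD1 samples. Dcn was the largest part of this sum in WT. Pdgfra ran the other way under IgG without being called, with 26.3, 42.5 and 69.0 CPM in WT and 63.6, 85 and 62.9 in A159V. The other 5 markers were lower in A159V IgG. The 5 endothelial markers summed to between 5.15 and 15.1 CPM in any sample. The epithelial markers were nearly absent, with 0.817 to 4.29 CPM for the sum of 6 and Epcam at 3 counts or fewer in every library, so the carcinoma label was not borne out by these markers. In bulk samples, fewer cells of a type and less RNA per cell cannot be told apart.

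**Figure D2:**
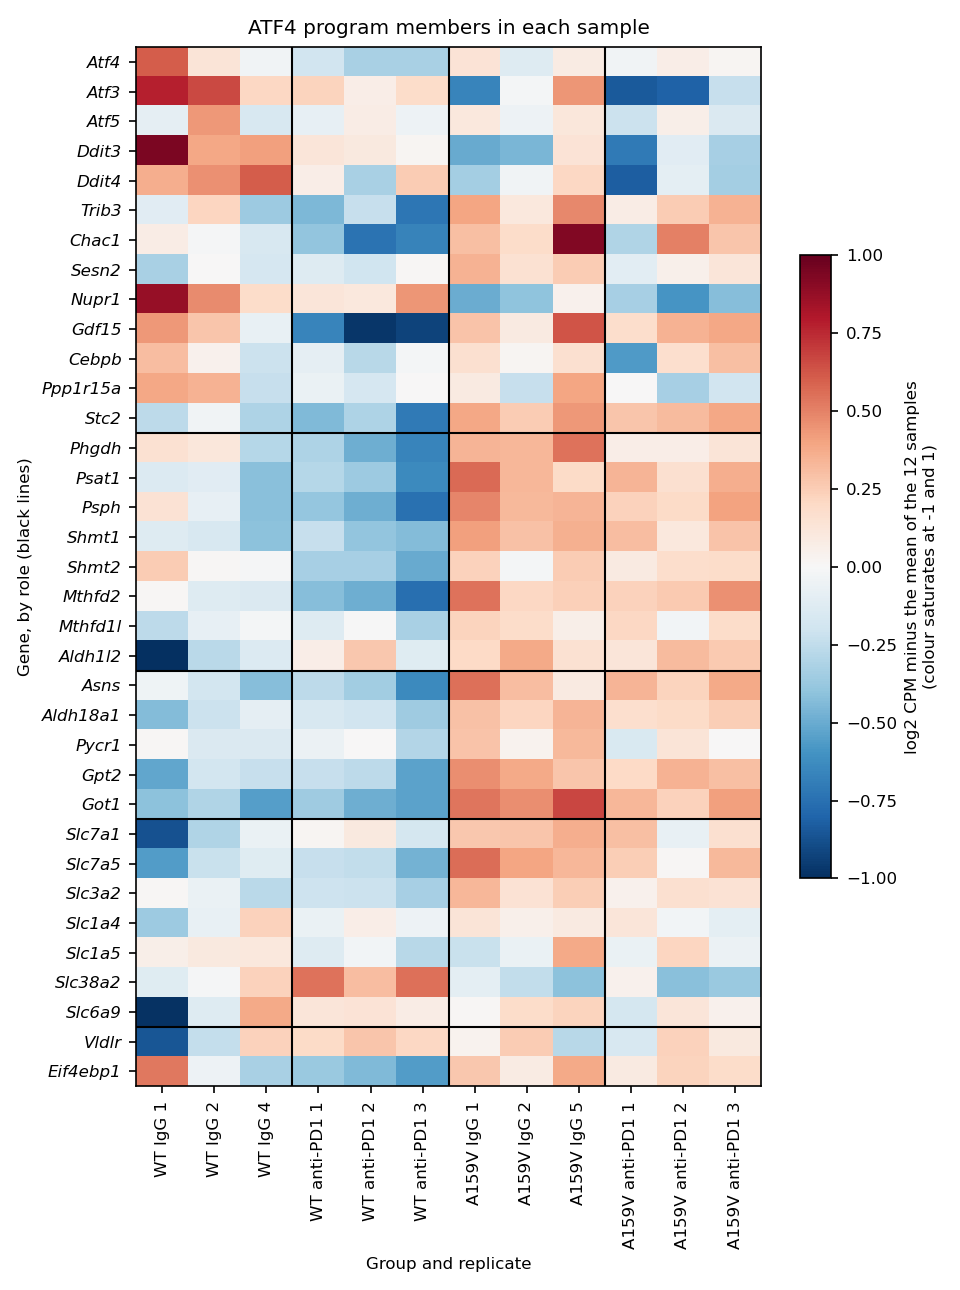
Rows are the 35 members grouped by role, columns the 12 samples, and color the log2 CPM minus the mean of all samples. Most serine and transamination rows are red in A159V and blue in WT, and those of Ddit3 and Nupr1 are mostly red in WT and blue in A159V.

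The first question was how the program differed between A159V and WT tumor cells under IgG. Enzymes that make amino acids and several carriers were higher in A159V, while the stress effectors Ddit3 and Nupr1 were lower, and Atf4 mRNA itself was not called. A member was called when its adjusted p was under 0.05 and its absolute log2 fold change above 0.3, and 14 of 35 were called higher in A159V and 2 lower, where 15.6% and 12.4% of the 14340 genes tested were called. The median log2 fold change was 0.31 over the members and 0.02 over all genes tested. The 3 A159V values all lay above the 3 WT values for 18 members and all below for 3, against 19.8% and 16.0% of all genes.

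Got1, the cytosolic aspartate aminotransferase (GRCm38 chr19:43499752-43524605, minus strand), had the smallest p of the members. It read 118, 127 and 107 CPM in WT IgG and 227, 216 and 248 in A159V IgG, so the groups lay far apart, with log2 fold change 0.98 ± 0.12 (SE), adjusted p = 0.000204. Gpt2, the mitochondrial alanine aminotransferase, read 90.6, 114 and 110.5 CPM in WT IgG and 179, 169 and 157 in A159V IgG (log2 fold change 0.68 ± 0.13 (SE), adjusted p = 0.00276). Every A159V library was again above every WT library. Shmt1, the cytosolic serine hydroxymethyltransferase that passes a carbon from serine to folate, read 85.7, 83.6 and 70.6 CPM against 125, 115 and 120.0 (log2 fold change 0.58 ± 0.12 (SE), adjusted p = 0.00397). These 3 genes had the smallest p among the members that rose.

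The other enzymes all had a positive log2 fold change, and not all of them were called. Of the 5 enzymes of asparagine, proline and transamination, 4 rose, the others being Asns, which makes asparagine (log2 fold change 0.54), and Aldh18a1, which opens proline synthesis (0.52). Pycr1, which closes proline synthesis, was not called at 0.31 (adjusted p = 0.117). Of the 8 enzymes of serine and one-carbon metabolism 5 rose, with a median log2 fold change of 0.46. They were Shmt1, the serine synthesis enzymes Psat1 (0.59) and Psph (0.49), and the mitochondrial folate enzymes Mthfd2 (0.42) and Aldh1l2 (0.72). Phgdh, the first enzyme of serine synthesis, was just outside the limit (log2 fold change 0.40 ± 0.15 (SE), adjusted p = 0.0563). Mthfd1l and Shmt2 were not called, at 0.28 and 0.07. The values of Aldh1l2 in WT IgG were 56.3, 109.9 and 120.0 CPM, so its difference rested in part on the low replicate 1, and without that library its log2 fold change was 0.38 and the call was lost.

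Among the 7 carriers, 3 rose and none was called lower. Slc7a5 and Slc3a2 encode the light and the heavy chain of the exchanger that imports leucine and other large neutral amino acids. Slc7a5 read 403, 509 and 544.5 CPM in WT IgG and 873, 781 and 745 in A159V IgG, with no overlap (log2 fold change 0.72 ± 0.15 (SE), adjusted p = 0.00431), and Slc3a2 differed by 0.34 (adjusted p = 0.0492). Slc7a1, which carries arginine and other cationic amino acids, differed by 0.68. It was one of the long genes that were low in WT IgG replicate 1, and its call was kept without that library. The carriers of neutral amino acids Slc1a4, Slc1a5 and Slc38a2 and the glycine carrier Slc6a9 were not called, with log2 fold changes between -0.29 (Slc38a2) and 0.28 (Slc6a9).

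The 13 regulators and stress effectors divided, with 2 higher, 2 lower and a median log2 fold change of -0.03. Ddit3 (CHOP) read 118, 80.0 and 81.5 CPM in WT IgG and 43.2, 44.5 and 67.1 in A159V IgG, the A159V libraries all lower (log2 fold change -0.85 ± 0.21 (SE), adjusted p = 0.0100). Nupr1, a small chromatin-associated stress protein, read 399, 302.5 and 247 against 154, 165 and 224 CPM (log2 fold change -0.80 ± 0.19 (SE), adjusted p = 0.00898). The highest A159V value of Nupr1 lay close below the lowest WT value. Both genes read highest in WT IgG replicate 1, and both calls were kept without that library and with the length trend removed. Ddit4, an inhibitor of mTORC1, had the third smallest p among the members that were lower and read 327, 349 and 387 against 201, 248 and 293 CPM (log2 fold change -0.52 ± 0.20 (SE), adjusted p = 0.0747), which was not called. The 2 that rose were Stc2, a secreted glycoprotein (0.56), and Sesn2, a leucine sensor that restrains mTORC1 (0.41).

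Atf4 (GRCm38 chr15:80255184-80257541, plus strand) mRNA read 709.9, 512.5 and 457.5 CPM in WT IgG and 513, 428 and 494 in A159V IgG. The groups overlapped and the difference was not called (log2 fold change -0.23 ± 0.16 (SE), adjusted p = 0.296). Atf3 (-0.58), the pseudokinase Trib3 (0.40) and Chac1, which degrades glutathione (0.54), had unadjusted p under 0.05 without passing the adjusted limit (adjusted p from 0.0935 to 0.103). Atf5, Cebpb, Ppp1r15a and Gdf15 differed by between -0.08 (Ppp1r15a) and 0.12 (Gdf15) on the log2 scale. The other targets Vldlr and Eif4ebp1 were not called either, at 0.24 and 0.16.

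How many members were called under IgG depended on the fit. DESeq2 called 13 higher and 4 lower, and with the exon length trend removed 15 were higher and 3 lower, Chac1, Phgdh, Trib3 and Slc38a2 being added and Psph and Slc3a2 lost. With the summed leukocyte marker level as a covariate 1 was called higher (Got1) and 1 lower (Ddit3), where 1.36% and 1.25% of all genes were called. That sum did not overlap between WT IgG and A159V IgG, its largest part being Cd68 while Ptprc ran the other way, so in this fit the covariate and the genotype could hardly be told apart. With only the 2 groups in the fit, 2 were called higher (Got1 and Gpt2), against 4.1% of all genes. Leaving out WT IgG replicate 2 or A159V IgG replicate 1 left 9 called in each case. The calls of Got1, Gpt2, Shmt1, Slc7a5, Aldh18a1, Stc2, Ddit3 and Nupr1 were kept whichever library was left out, and the other 8 were lost in at least 1 such fit. Among these, Psat1 was lost only without A159V IgG replicate 1 (adjusted p = 0.0520) and Slc7a1 only without WT IgG replicate 2 (adjusted p = 0.0532), while Aldh1l2, Asns, Sesn2, Mthfd2, Psph and Slc3a2 were lost in 4 or 5 of 6 fits, with adjusted p up to 0.178. With RLE size factors the split was 10 higher and 3 lower. With upper-quartile scaling, which moved the median of all genes from 0.02 to -0.12, it was 8 higher and 4 lower. The members' median then stood 0.293 above that of all genes, compared with 0.289 under TMM. Rescaling moves all genes of a comparison by nearly the same amount, so this gap could hardly change and tests nothing. Among the markers, 2 of 11 leukocyte genes tested were called higher and 3 lower in A159V IgG, and 4 of 6 fibroblast and pericyte genes lower. The part of the fibroblast markers in the members' differences was not tested.

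The same comparison under anti-PD1 used 6 other samples. There 17 members rose in A159V and 3 fell, where 11.2% and 10.2% of all genes were called, and the median log2 fold change was 0.29 over the members and 0.06 over all genes. The 3 A159V values lay above the 3 WT values for 18 members and below for 4, against 32.6% and 23.5% of all genes. Serine, one-carbon and transamination enzymes and Stc2 were again higher, Nupr1 again lower, and the stress effectors Gdf15, Chac1 and Trib3 were called higher.

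Gdf15, a secreted stress cytokine of the TGF-beta family, had the smallest p. It read 44.7, 35.9 and 37.1 CPM in WT anti-PD1 and 79.8, 89.6 and 92.5 in A159V anti-PD1 (log2 fold change 1.15 ± 0.17 (SE), adjusted p = 0.000623). The lowest A159V value was well above the highest WT value. Got1 read 122, 112 and 108 against 197, 183 and 208 CPM (log2 fold change 0.78 ± 0.12 (SE), adjusted p = 0.000726). Mthfd2, the mitochondrial methylenetetrahydrofolate dehydrogenase, read 175, 167.5 and 139 against 276, 282 and 322 CPM (log2 fold change 0.87 ± 0.14 (SE), adjusted p = 0.00103). Neither pair of groups overlapped.

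Of the 8 serine and one-carbon enzymes 6 rose, with a median log2 fold change of 0.58. Besides Mthfd2 these were Psph (0.81), Psat1 (0.71), Shmt1 (0.59), Phgdh (0.56) and Shmt2, the mitochondrial serine hydroxymethyltransferase (0.54). Mthfd1l was at 0.27 and Aldh1l2 at 0.15, neither called. The same 4 of 5 enzymes of asparagine, proline and transamination as under IgG rose, namely Got1, Asns (0.72), Gpt2 (0.62) and Aldh18a1 (0.43), and Pycr1 did not (0.11).

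The carriers diverged. Slc7a5 (0.51) and Slc3a2 (0.36) rose, while Slc38a2, a sodium-coupled carrier of glutamine and other neutral amino acids, fell. Slc38a2 read 546, 463.5 and 547 CPM in WT anti-PD1 and 385, 280.3 and 289 in A159V anti-PD1, without overlap (log2 fold change -0.71 ± 0.16 (SE), adjusted p = 0.00752). Slc7a1, Slc1a4, Slc1a5 and Slc6a9 were not called and lay between -0.11 (Slc6a9) and 0.18 (Slc1a5).

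Among the regulators and stress effectors, 4 rose and 2 fell. Besides Gdf15 these rises were those of Stc2 (0.80), Chac1 (0.79) and Trib3 (0.68), and Eif4ebp1, the translational repressor 4E-BP1, listed with the other targets, rose as well (0.62). Nupr1 read 236.5, 234 and 295.5 CPM in WT anti-PD1 and 173, 144.5 and 162 in A159V anti-PD1 (log2 fold change -0.68 ± 0.19 (SE), adjusted p = 0.0243). Atf3 read 125, 112 and 122 against 59.8, 61.2 and 91.3 CPM (log2 fold change -0.76 ± 0.25 (SE), adjusted p = 0.0457). All A159V values of both genes were below all WT values. Ddit3 was lower in each A159V library than in each WT library without being called (66.6, 65.4 and 62.0 against 37.5, 56.7 and 48.7 CPM, log2 fold change -0.44 ± 0.21 (SE), adjusted p = 0.146). Atf4 read 409.6, 374 and 373.5 CPM in WT anti-PD1 and 457, 489 and 473 in A159V anti-PD1, with every A159V value higher, but was not called (log2 fold change 0.29 ± 0.16 (SE), adjusted p = 0.200). Ddit4, Sesn2, Cebpb, Atf5, Ppp1r15a and Vldlr were not called.

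Leaving out WT anti-PD1 replicate 2 or 3 or A159V anti-PD1 replicate 3 lowered the number called from 20 to 13, 10 and 12. The calls of Gdf15, Got1, Mthfd2, Stc2, Psph, Shmt1, Psat1, Gpt2, Asns and Slc38a2 were kept whichever library was left out, and the other 10 were lost in at least 1 such fit. Shmt2 was lost only without WT anti-PD1 replicate 3 (adjusted p = 0.0563), Trib3 without that library or A159V anti-PD1 replicate 3, Nupr1 and Phgdh in 3 of 6 fits, Aldh18a1 and Chac1 in 4, Atf3 and Slc7a5 in 5, and Slc3a2 and Eif4ebp1 in all 6, with adjusted p up to 0.163. The leukocyte markers also moved with this comparison, with 6 of the 11 tested lower in A159V and none higher, as did 4 of 6 fibroblast and pericyte markers, both endothelial markers tested and the 1 epithelial marker tested, Cdh1. Of the markers, Ptprc averaged 10.2 CPM in WT anti-PD1 and 0.129 in A159V anti-PD1, and Dcn, a fibroblast proteoglycan, 298 and 81.9 CPM. With the summed leukocyte marker level as a covariate 16 members were called higher and 1 lower, the calls of Nupr1, Atf3 and Slc7a5 being lost. The part of the fibroblast markers was not tested here either.

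**Figure D3:**
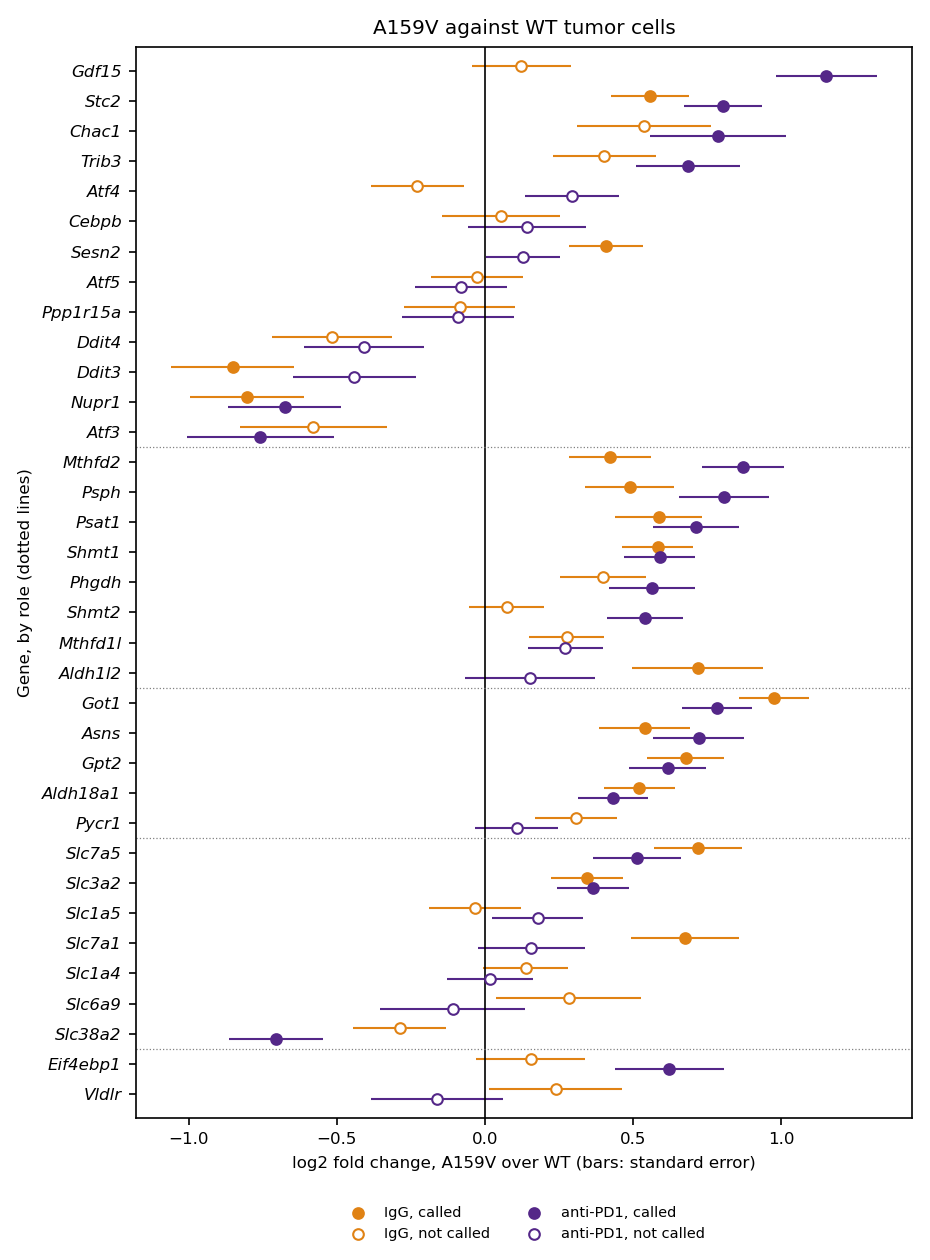
Points give the log2 fold change of A159V over WT for each member under IgG (orange) and anti-PD1 (purple), with bars for the standard error. Filled points were called. The enzyme rows lie to the right of 0 in both treatments, and Nupr1, Atf3 and Ddit3 to the left.

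The genotype comparisons under IgG and under anti-PD1 share no sample, but their spread was estimated in 1 fit of all 12 samples. Both also use A159V cells that may come from 1 clone. Their calls are set side by side as a description, not as independent replication. Called higher in both were 11 members, which is 78.6% of those called higher under IgG and 64.7% of those under anti-PD1. Over all genes tested the shares were 39.5% and 54.6%. The 11 were Got1, Gpt2, Asns, Aldh18a1, Psat1, Psph, Shmt1, Mthfd2, Slc7a5, Slc3a2 and Stc2. All but Stc2 make or carry amino acids or one-carbon units. Nupr1 was the 1 member called lower in both (50.0% and 33.3%, against 42.3% and 51.4% of all genes called lower). No member was called in opposite directions, and 31 of 35 (88.6%) had the same sign, as did 67.7% of all genes tested, the exceptions being Atf4, Slc1a5, Slc6a9 and Vldlr. Whether a member's difference changed between the treatments is the interaction tested below. Called under IgG alone were Aldh1l2, Sesn2, Slc7a1 and Ddit3, and under anti-PD1 alone Chac1, Eif4ebp1, Gdf15, Phgdh, Shmt2, Trib3, Atf3 and Slc38a2. Of these, Chac1 (0.69, adjusted p = 0.0307), Trib3 (0.48, 0.0430), Phgdh (0.44, 0.0165) and Slc38a2 (-0.48, 0.0143) were called under IgG too once the exon length trend was removed, and Atf3 was called there by DESeq2 (-0.66, adjusted p = 0.0464). Pearson's r of the log2 fold changes was 0.74 across the 35 members and 0.71 across all genes tested, a description over genes that share libraries. The 11 members called in neither were Atf4, Atf5, Cebpb, Ddit4, Ppp1r15a, Mthfd1l, Pycr1, Slc1a4, Slc1a5, Slc6a9 and Vldlr.

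Asns read 268, 244 and 206 CPM in WT IgG, 231, 218 and 178 in WT anti-PD1, 405, 343.5 and 295 in A159V IgG and 350.2, 323 and 361 in A159V anti-PD1. Psat1, the aminotransferase of serine synthesis, read 260.0, 265.5 and 214.5 CPM in WT IgG and 235, 222 and 185 in WT anti-PD1, against 425, 360.5 and 326 in A159V IgG and 362, 320.5 and 369.5 in A159V anti-PD1. For both genes every A159V value exceeded every WT value of either treatment. Aldh18a1 read 101, 118 and 129 CPM in WT IgG and 122.5, 119.7 and 107 in WT anti-PD1, compared with 168, 158.9 and 173 in A159V IgG and 153, 156 and 162 in A159V anti-PD1. Stc2 read 44.9, 52.7 and 43.7 CPM in WT IgG and 39.7, 43.6 and 33.1 in WT anti-PD1, while A159V IgG gave 70.6, 64.5 and 72.9 and A159V anti-PD1 gave 65.5, 67.2 and 70.6. These genes, too, had no overlap between the 6 WT and the 6 A159V samples. Trib3 and Chac1 were called under anti-PD1 and not under IgG. Trib3, which inhibits AKT and damps ATF4 itself, read 184, 231 and 154 CPM in WT IgG and 261, 214 and 278 in A159V IgG, where the groups overlapped, and 145, 169.6 and 120.0 against 209, 237 and 252 after anti-PD1, where they did not. Chac1 read 19.6, 18.4 and 16.6 against 22.8, 21.1 and 35.3 CPM under IgG and 14.1, 11.1 and 11.7 against 15.04, 26.3 and 22.4 under anti-PD1, without overlap in either.

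**Figure D4:**
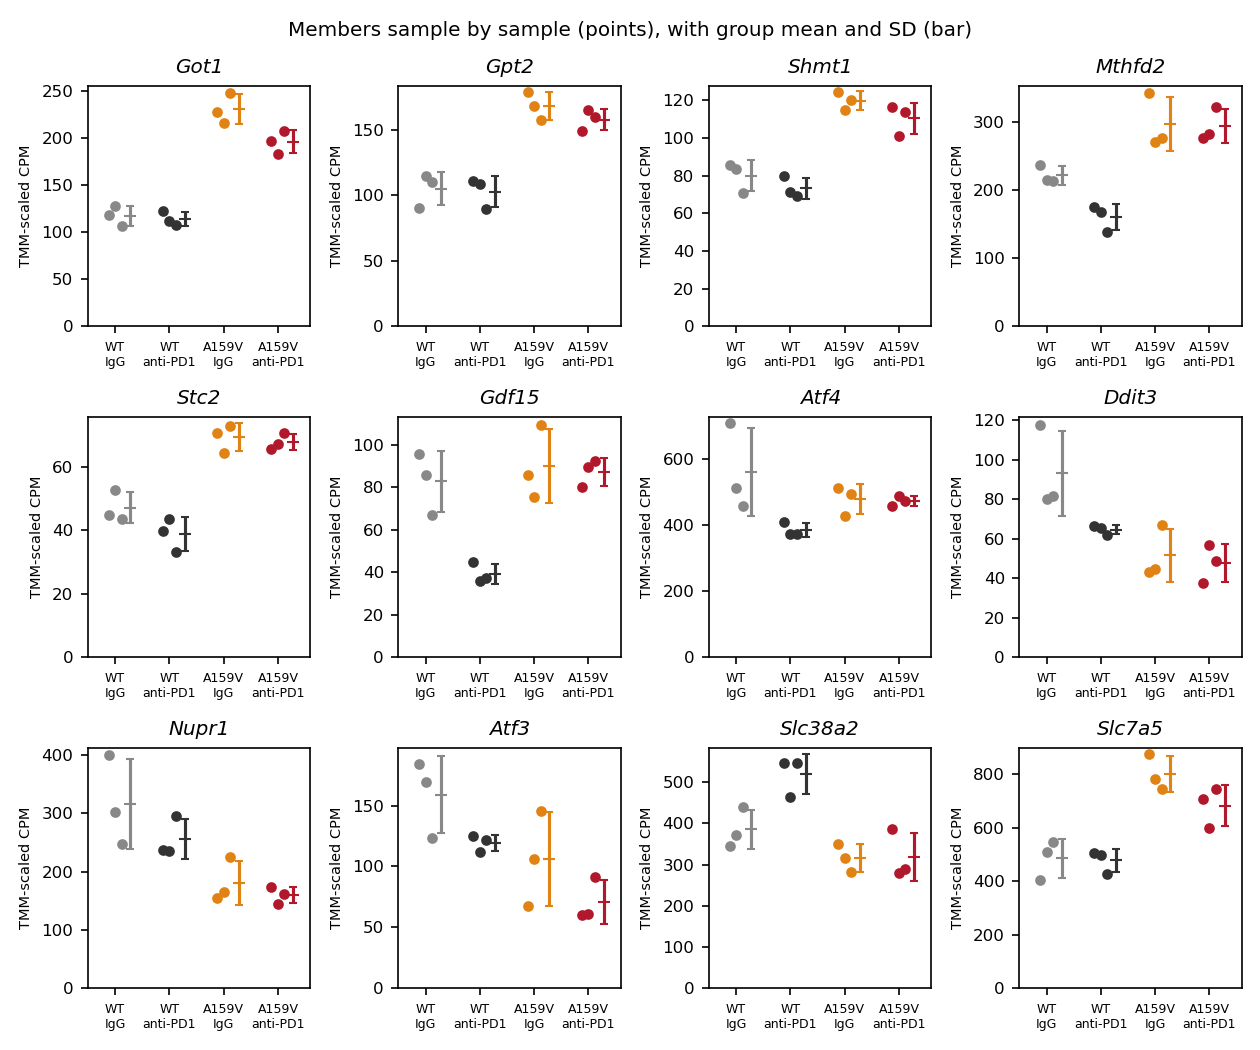
TMM-scaled CPM of 12 members in each of the 12 samples (points), with the group mean and SD (bars) and a y axis that starts at 0. Got1, Gpt2, Shmt1 and Stc2 are higher in both A159V groups, Nupr1 is lower in both, and Gdf15 is low in WT anti-PD1 alone.

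Members that rose and members that fell were compared at their promoters for the composite element that ATF4 and C/EBP proteins bind. The letters TGATGNAA, in which N is any base, were searched on both strands in the RefSeq promoter windows of GRCm38.p6, which run from 250 bases before to 50 after a start site. Of all 32851 windows 3.97% held the letters, and 4.51% of genes had at least 1 such window. Windows were found for 31 members, and 9 of these (29.0%) held the letters, namely Atf3, Chac1, Trib3, Asns, Nupr1, Slc1a4, Pycr1, Vldlr and Got1. The members were listed as genes of the ATF4 program, so their share beside that of all genes is not a test of enrichment. Aldh1l2, Eif4ebp1, Slc1a5 and Slc7a5 had no window. The 9 included members that rose in a genotype comparison (Asns, Got1, Chac1 and Trib3), members that fell (Atf3 and Nupr1) and members called in neither (Pycr1, Slc1a4 and Vldlr). A match is a description of the letters and not of binding, which was not measured. A stretch of 100 bases is shown for Got1 and Asns, which rose in both comparisons, Chac1, which rose in one, and Nupr1 and Atf3, which fell. Relative to the start site it runs from -148 to -49 for Got1, -100 to -1 for Asns and -239 to -140 for Chac1. For Nupr1 and Atf3 it runs from -156 to -57. Each is written in the direction of the gene, with the matching letters in capitals (TTNCATCA is the same element read on the opposite strand).
Got1, chr19:43524654-43524753, minus strand: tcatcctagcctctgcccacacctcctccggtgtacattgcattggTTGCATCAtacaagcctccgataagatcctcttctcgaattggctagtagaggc
Asns, chr6:7693210-7693309, minus strand: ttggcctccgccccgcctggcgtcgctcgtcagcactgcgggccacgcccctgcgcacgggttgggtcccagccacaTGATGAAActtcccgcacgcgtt
Chac1, chr2:119351003-119351102, plus strand: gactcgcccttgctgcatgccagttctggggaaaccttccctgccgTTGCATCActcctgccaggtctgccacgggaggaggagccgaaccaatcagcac
Nupr1, chr7:126625527-126625626, minus strand: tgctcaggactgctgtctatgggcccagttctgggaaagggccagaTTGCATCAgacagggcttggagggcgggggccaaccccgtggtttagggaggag
Atf3, chr1:191183390-191183489, minus strand: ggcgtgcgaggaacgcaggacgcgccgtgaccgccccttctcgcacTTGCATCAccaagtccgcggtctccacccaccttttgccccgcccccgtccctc
The element of Asns began 23 bases before the start site, those of Got1, Nupr1 and Atf3 102, 110 and 110 bases before it, and that of Chac1 193 bases before it. Got1, Nupr1, Chac1 and Atf3 carried the same 8 letters, TTGCATCA, although Got1 was higher and Nupr1 lower in A159V.

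The genes around the program were read from 7 lists. Aminoacyl-tRNA synthetases, the enzymes that charge tRNA with amino acids and known targets of ATF4, all had a positive log2 fold change in A159V. Of 20, 9 were called higher under IgG and 15 under anti-PD1, with medians of 0.37 and 0.51 and none lower. Over all genes 15.6% and 11.2% were called higher. Leaving out 1 library gave 5 to 10 synthetases called higher under IgG and 4 to 11 under anti-PD1, the 4 without WT anti-PD1 replicate 3. With only the groups compared 2 and 16 were called, and with the leukocyte marker sum as covariate 0 and 12. Examples were Iars (0.84 ± 0.17 under IgG) and Gars (0.71 ± 0.14 under anti-PD1). Wars and Eprs under IgG and Aars and Cars under anti-PD1 were the others with the smallest p. Of 13 genes for eIF2, its kinases and its exchange factor eIF2B, 6 were called higher under IgG and 4 under anti-PD1, Eif2b4 in both (0.52 and 0.85). Eif2s3x was among the 6 although its groups overlapped, with 218, 210 and 244 CPM in WT IgG and 440, 404 and 243 in A159V IgG. Its low A159V value was that of replicate 5. There Eif2s2 (805, 690 and 350 CPM in A159V IgG) and the chaperone gene Hsp90b1 (827, 803 and 317) were low too, while Aars (1045, 972.5 and 1169) was not. The kinase gene Eif2ak3 (PERK) was among those called under IgG (0.59), but its call was lost without WT IgG replicate 1, which left 3 of the 6. Over all fits that left out 1 library, 0 to 4 genes of this list were called under IgG. The 0 came without WT IgG replicate 2, and A159V IgG replicate 1 or 2 left out gave 1 each. With only the groups compared 0 were called.

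Further amino acid carriers, of which 8 of 11 were tested, were called higher in 6 cases under IgG and in 1 under anti-PD1, where Slc36a4 fell (-0.84). Several of the 6 read low in WT IgG replicate 1, Slc6a6, a taurine carrier, with 133, 229.9 and 271 CPM in WT IgG among them, and without that library 4 were called higher. Slc7a11, the light chain of the cystine exchanger and a known ATF4 target, read 43.4, 71.4 and 64.8 CPM in WT IgG and 147.5, 153 and 110.1 in A159V IgG (log2 fold change 1.19 ± 0.23 (SE), adjusted p = 0.00290), and rose under anti-PD1 too (0.75). Of the 12 other folate and methionine cycle enzymes tested, 5 rose and 1 fell under IgG, and 6 rose under anti-PD1. Beside these counts and those of the carriers, 15.6% of all genes were called higher and 12.4% lower under IgG. Under anti-PD1 the shares were 11.2% and 10.2%, and the carriers, with 1 of 8 called in each direction, stood close to them. Gart, a purine synthesis enzyme that uses folate, rose in both (0.76 and 0.56).

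Of the 16 other genes that ATF4 is known to bind or drive, 4 were higher and 4 lower under IgG. Under anti-PD1, 4 were higher and 5 lower. Over all genes tested, 15.6% were called higher and 12.4% lower under IgG, and 11.2% and 10.2% under anti-PD1. Without WT IgG replicate 1, 2 of the 16 were higher and 5 lower under IgG. Cth, which makes cysteine from cystathionine, differed most. It read 0.765, 0.673 and 0.502 CPM in WT IgG and 13.8, 9.65 and 8.93 in A159V IgG (log2 fold change 4.05 ± 0.30 (SE), adjusted p = 1.37e-05), and 0.725, 0.402 and 0.334 CPM in WT anti-PD1 against 8.55, 11.5 and 11.5 in A159V anti-PD1 (log2 fold change 4.39 ± 0.31 (SE), adjusted p = 9.79e-06). Gadd45b, a stress-induced growth arrest gene, was lower under IgG (-1.05), and the pseudokinase gene Trib1 and the sestrin gene Sesn1 were lower in both treatments, with log2 fold changes of -0.73 and -0.88 under IgG and of -2.38 and -1.55 under anti-PD1. Trib1 was also the 1 gene of the 7 lists called in WT after anti-PD1, where it rose (1.22, adjusted p = 0.0492 by edgeR). Of the 6 partners and related bZIP factors tested, 2 rose under IgG, Nfe2l2 and Nfe2l1, and Cebpg fell (-0.39), and none was called under anti-PD1.

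The ATF6 and XBP1 branches of the endoplasmic reticulum response run beside the ATF4 branch and raise chaperones and folding enzymes. Of 18 genes of these branches, which include the sensors Atf6 and Ern1 and the factor Xbp1, 7 rose under IgG, where 15.6% of all genes did. They were led by the chaperone gene Hyou1 (0.96) and Atf6 itself (0.85), while the chaperone genes Hspa5, Hsp90b1 and Calr were not called. With only the groups compared 1 was called, and with the leukocyte marker sum as covariate 0. Under anti-PD1 only Hyou1 rose (0.59) and Dnajb9 fell (-0.98), where 11.2% and 10.2% of all genes were called. The medians of the 18 were 0.23 and 0.11, against 0.02 and 0.06 over all genes.

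The second question was whether anti-PD1 changed the program. In WT tumor cells, 1 member fell and none rose, where 0.132% and 0.495% of all genes were called. That member was Gdf15, which read 95.4, 85.7 and 67.0 CPM in WT IgG and 44.7, 35.9 and 37.1 in WT anti-PD1, a fold of 0.475 (log2 fold change -1.07 ± 0.17 (SE), adjusted p = 0.0187). The groups did not overlap. Shmt2 and Atf4 followed by p without being called. Shmt2 read 475, 401 and 395 against 316, 316 and 281 CPM (log2 fold change -0.48 ± 0.13 (SE), adjusted p = 0.0760), and Atf4 709.9, 512.5 and 457.5 against 409.6, 374 and 373.5 CPM (log2 fold change -0.54 ± 0.16 (SE), adjusted p = 0.0839). In both, every anti-PD1 value was below every IgG value.

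The members with the smallest p in the upward direction were Slc38a2, Aldh1l2 and Vldlr. Slc38a2 read 345, 372 and 438 CPM in WT IgG and 546, 463.5 and 547 in WT anti-PD1 (log2 fold change 0.43 ± 0.16 (SE), adjusted p = 0.116). Aldh1l2 read 56.3, 109.9 and 120.0 against 139, 159.2 and 122 CPM (adjusted p = 0.137), and Vldlr, a lipoprotein receptor, 43.7, 66.8 and 92.8 against 90.3, 95.3 and 91.2 CPM (adjusted p = 0.214). Aldh1l2 and Vldlr were low in WT IgG replicate 1. Over the 35 members, 27 had a negative log2 fold change and 13 (37.1%) an unadjusted p under 0.05, compared with 48.6% and 27.5% of all genes tested. The median was -0.20, against 0.01 over all genes. The regulators and stress effectors had a median of -0.39, with 12 of 13 below 0, and the 5 enzymes of asparagine, proline and transamination a median of -0.03.

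This comparison rested on which library and tool were used. DESeq2 called 6 members lower, Gdf15, Shmt2, Phgdh, Mthfd2, Atf4 and Eif4ebp1, where it called 5.31% of all genes lower. Without WT IgG replicate 4, edgeR called 4 members higher and 8 lower, where 12.2% and 11.4% of all genes were called. Without any 1 of the other 5 libraries of this comparison no member was called, Gdf15 included. Over all 6 such fits its log2 fold change stayed between -1.21 and -0.97, with adjusted p from 0.00825 to 0.103. Leukocyte markers rose with the treatment, 3 of the 11 tested being called (Cd8a, Itgam and Nkg7), and with their sum as a covariate no member was called, although the median of the members was then -0.44. That sum did not overlap between WT IgG and WT anti-PD1, so in this fit the covariate and the treatment could hardly be told apart.

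In A159V tumor cells no member was called by edgeR after anti-PD1 (adjusted p = 1.0 for all), as was no other gene (0.0% of genes tested, with 521 genes at an unadjusted p under 0.05 and 2 called by DESeq2), and 2 members had an unadjusted p under 0.05, Atf3 and Phgdh. DESeq2 and voom called none of the members either. Atf3 read 67.8, 106 and 145 CPM in A159V IgG and 59.8, 61.2 and 91.3 in A159V anti-PD1, and these groups overlapped. Phgdh read 580.4, 577.5 and 666 against 480.3, 479 and 499.7 CPM. Got1, next by p, read 227, 216 and 248 against 197, 183 and 208 CPM. For Phgdh and Got1 every anti-PD1 value was below every IgG value, at log2 fold changes of -0.32 and -0.23. Gdf15, which fell in WT, read 85.8, 75.2 and 109 CPM in A159V IgG and 79.8, 89.6 and 92.5 in A159V anti-PD1 (log2 fold change -0.04 ± 0.17, SE). Atf4 was at -0.02 ± 0.16. The median of the members was -0.11, against 0.00456 over all genes, and 33 of 35 had a negative value. The members with the smallest p in the upward direction were Vldlr and Slc38a2, the only ones above 0, at 0.05 and 0.01. The marker sums given above differed little between the A159V groups.

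**Figure D5:**
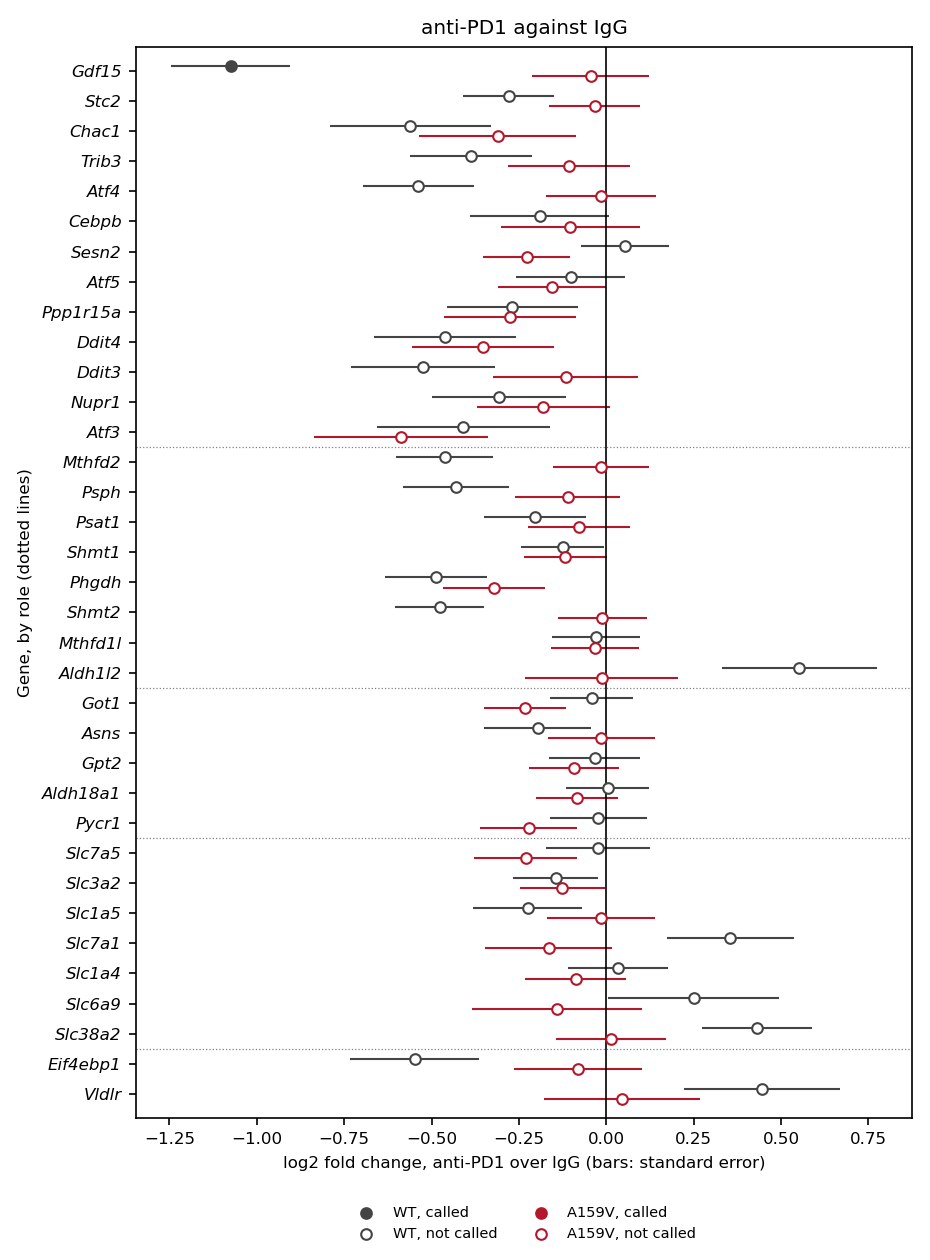
Points give the log2 fold change of anti-PD1 over IgG for each member in WT (grey) and A159V (red), with bars for the standard error. The only filled point is Gdf15 in WT, at -1.07, where A159V lies at -0.04.

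The difference between the genotypes in their response to anti-PD1 was tested as an interaction. No member was called by edgeR, and 0.00697% of all genes were, while 4 members had an unadjusted p under 0.05, Gdf15, Shmt2, Atf4 and Mthfd2. That is 11.4% of the members, below the 17.6% of all genes tested. All 4 had lower values after anti-PD1 in WT and little difference in A159V, so their interaction was positive. Gdf15 had the smallest p (log2 difference 1.03 ± 0.24, SE, adjusted p = 0.135 by edgeR). The others were Shmt2 (0.47 ± 0.18), Atf4 (0.52 ± 0.22) and Mthfd2 (0.45 ± 0.19), with adjusted p from 0.238 to 0.268. In the downward direction the smallest p belonged to Slc7a1 (-0.52), Slc38a2 (-0.42) and Aldh1l2 (-0.57), with adjusted p from 0.302 to 0.334. DESeq2 called 1 member, Gdf15 (1.04, adjusted p = 0.0143), where it called 0.718% of genes higher, voom called none, and edgeR called Gdf15 without WT IgG replicate 4 (1.16, adjusted p = 0.0318). The median over the members was 0.02.

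Some members share exon bases with other genes in the annotation, and the strand setting of the counting is not stated, so reads in those bases cannot be assigned. The shared part was 1056 of 7503 exon bases of Aldh1l2, 1429 of 5141 bases of Slc6a9 with Ccdc24, 452 bases of Psph with Cct6a, 312 of Cebpb and 184 of Shmt1. Ddit3 shared 68 bases with the tRNA synthetase gene Mars, which was not called in either genotype comparison (0.11 and 0.31), and 105 bases with a second gene model of its own.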

How the data were processed

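RNA from tumor cells of 12 mice, 4 groups of 3, was read as 100-bp pairs. The authors aligned the reads to mm10 with STAR and deposited raw counts per gene from summarizeOverlaps, without normalization. How overlapping genes and strand were treated is not given in the sources used here. Rows were matched to GENCODE M21, and rows without a gene there held 0.215% to 0.25% of the counts. Counts of 14340 genes kept by filterByExpr were tested with edgeR 4.0.16 in R 4.3.3, by a quasi-likelihood fit of all 12 samples scaled by TMM, with Benjamini-Hochberg adjustment over those genes, and 5 contrasts. Calls needed 0.05 for the adjusted p and 0.3 for the size of the log2 fold change. With 3 mice per group, p-values set a difference against the spread within groups, estimated over all 4 groups. In the genotype comparisons this is a spread between mice and not between clones. Floors of 3 counts (0.144 to 0.201 CPM) cover counting error only. The test was checked on simulated counts.

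The members, gene lists and tests were chosen with earlier results of these data known. Every called member is named, the 3 of smallest p in each direction are given sample by sample, and up to 3 called genes of each other list are named. Cebpd was not analysed here. Alternatives were RLE and upper-quartile scaling, other filters on low counts, DESeq2 1.42.0, voom in limma 3.58.1, only the groups compared, a replicate block, the leukocyte marker sum as covariate, no limit on fold, and each library left out. Removing each sample's exon length trend was added after the data were seen.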

Additional observations from a re-analysis of the deposited data

How the results depend on the processing

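The median of the members moved by more than the SD between replicates in several alternatives without changing direction in the genotype comparisons. Under IgG it was 0.23 with RLE size factors, 0.17 with upper-quartile scaling, 0.19 with at least 10 counts in every sample, 0.23 with DESeq2, 0.23 with only the groups compared and 0.16 with the leukocyte marker sum as covariate. Under anti-PD1 it was 0.23, 0.20, 0.21, 0.23, 0.21 and 0.43 in these settings. In WT the anti-PD1 median was -0.44 with the leukocyte covariate and -0.13 with the exon length trend removed, and the interaction median 0.32 and -0.0461. With all of these settings the causes were not tested. The number of members called under IgG fell to 2 with only the groups compared and to 2 with the leukocyte covariate. For anti-PD1 in WT it was 6 with DESeq2, 0 with only the groups compared and 0 with the leukocyte covariate, and for the interaction 1 with DESeq2. The interaction needs all groups, so no fit of the compared groups alone was made. Leaving out 1 library gave 9 to 14 called members and medians of 0.22 to 0.40 for A159V against WT under IgG, 10 to 16 and 0.27 to 0.37 under anti-PD1, 0 to 12 and -0.30 to -0.11 for anti-PD1 in WT, 0 in every fit and -0.15 to -0.06 in A159V, and 0 to 1 and 0.00639 to 0.12 for the interaction.

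The replicate numbers belong to different mice. The correlation of deviations between samples of the same number ranged from -0.178 to 0.205 over 13 pairs, and from -0.224 to 0.229 over 41 pairs of different numbers, so the numbers do not pair the samples. With the number as a replicate block, 19 members were called under IgG, 20 under anti-PD1, 16 for anti-PD1 in WT, 0 in A159V and 6 for the interaction, whose median was 0.17. Number 4 occurs only in WT IgG and number 5 only in A159V IgG. The block therefore fitted each of those libraries exactly and in effect left them out, with fewer residual degrees of freedom than the main fit. Its counts cannot be read as an effect of pairing.

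Of 2975 single-member results under these alternatives 2538 kept their direction and side of the threshold, 151 lost a call, 62 gained one, 224 changed sign without a call in either fit, and none that was called in either fit reversed. With 3 libraries a group and 8 residual degrees of freedom, a member that was not called is not shown to be equal between groups.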
